A study of Danio rerio with 12 samples.

Results

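The 8 genes described here encode activin subunits (inhbaa, inhbab and inhbb), follistatins (fsta and fstb) and activin receptors (acvr1ba, acvr1bb and acvr2aa) of the zebrafish. They were picked by symbol, and all 8 were found among the 25680 genes counted. Their levels were compared between animals that carried inactivating mutations in tet2 and tet3 and their controls, which addresses how loss of these TET dioxygenases, enzymes that oxidise methylated cytosine in DNA, alters expression in the embryo and in the heart. There were 3 libraries of double mutant (DM) and 3 of sibling whole embryos, taken 25 hours post fertilisation (hpf). For hand-dissected 48 hpf hearts there were 2 libraries a group from DM, sibling and wild type (WT) animals, numbered 1 and 3 in every group. The sibling libraries mixed wild type animals with tet2 and/or tet3 heterozygotes, so both sibling groups were mixed genotypes. All 12 libraries were labelled with the strain background AB, while the growth protocol names crosses of the AB and TU lines as the source of wild-type embryos. The number of animals behind a library is not stated in the labels.

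Activins are dimers of inhibin beta subunits and belong to the TGF-beta superfamily of secreted ligands. A dimer binds a type II receptor kinase such as the product of acvr2aa, which then activates a type I receptor such as the products of acvr1ba and acvr1bb. The type I receptor phosphorylates Smad2 and Smad3, and these enter the nucleus with Smad4. Follistatins bind activins outside the cell and keep them from their receptors. In the early vertebrate embryo the activin and Nodal branch patterns mesoderm and endoderm. In the developing heart, TGF-beta superfamily ligands act in valve, outflow and epicardial development. Many of these genes are present as duplicates in zebrafish, marked by a final a or b.

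The deposited tables place the genes on the build GRCz10. The inhibin beta A genes lie on chromosome 24 (inhbaa, ENSDARG00000012671, 3191762 to 3204082) and on chromosome 2 (inhbab, ENSDARG00000024759, 21828467 to 21845680). The inhibin beta B gene inhbb (ENSDARG00000040777) lies on chromosome 9 from 37157499 to 37165084. The follistatin genes lie on chromosome 5 (fsta, ENSDARG00000052846, 39904757 to 39910262) and chromosome 10 (fstb, ENSDARG00000057992, 9134644 to 9143264). The type I receptor genes lie on chromosome 23 (acvr1ba, ENSDARG00000018968, 27873978 to 27896379) and chromosome 6 (acvr1bb, ENSDARG00000052142, 2040703 to 2065438). The type II receptor gene acvr2aa (ENSDARG00000011188) lies on chromosome 9 from 25569889 to 25633222. Values below are counts per 1000000 counts of the library (CPM), and they cover whole genes rather than isoforms. No transcript lengths were used, so levels are compared between samples and not between genes.

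Embryo libraries held 8341467 to 16700992 counts and heart libraries 3289161 to 5963478 counts. A count of 0 was taken to allow up to 3 counts. This is 0.180 to 0.360 CPM in embryos and 0.503 to 0.912 CPM in hearts, counting error only. Cardiomyocyte markers (8 genes) took 3.82% to 5.04% of counts in DM hearts, 1.41% to 3.32% in sibling hearts and 3.08% to 4.80% in WT hearts, against 0.0411% to 0.0475% in embryos. Lens and retina markers (8 genes) took 0.107% of counts in DM heart 1 and 0.245% in sibling heart 1, and at most 0.0174% in the other 4 hearts. Neural markers (5 genes) were at 0.229% in WT heart 3 and 0.0174% in WT heart 1. Transcripts of tet2 were counted in DM libraries at 87.5 to 152 CPM in embryos and 139 to 167 CPM in hearts, so gene counts do not check the mutations. The WT and sibling hearts both serve as controls for the same DM hearts, and a lower level in a bulk sample does not tell fewer expressing cells from less RNA per cell.

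The member with the largest differences in hearts was inhbaa, which encodes the subunit of activin A. It was at 2.39 and 2.59 CPM (13 and 11 counts) in the DM hearts, at 39.2 and 34.8 CPM (129 and 156 counts) in the sibling hearts, and at 17.4 and 5.43 CPM (104 and 28 counts) in the WT hearts. The 3 groups of hearts did not overlap, with DM hearts lowest and sibling hearts highest. In 25 hpf embryos it was at 1.77, 2.64 and 2.04 CPM in DM libraries and at 2.22, 2.07 and 1.91 CPM in sibling libraries, which overlapped throughout. The DM hearts were inside the range of the DM embryos. The 95% exact binomial intervals reached 4.63 CPM in DM hearts and started at 29.6 CPM in sibling hearts and at 3.61 CPM in WT hearts.

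**Figure D1:**
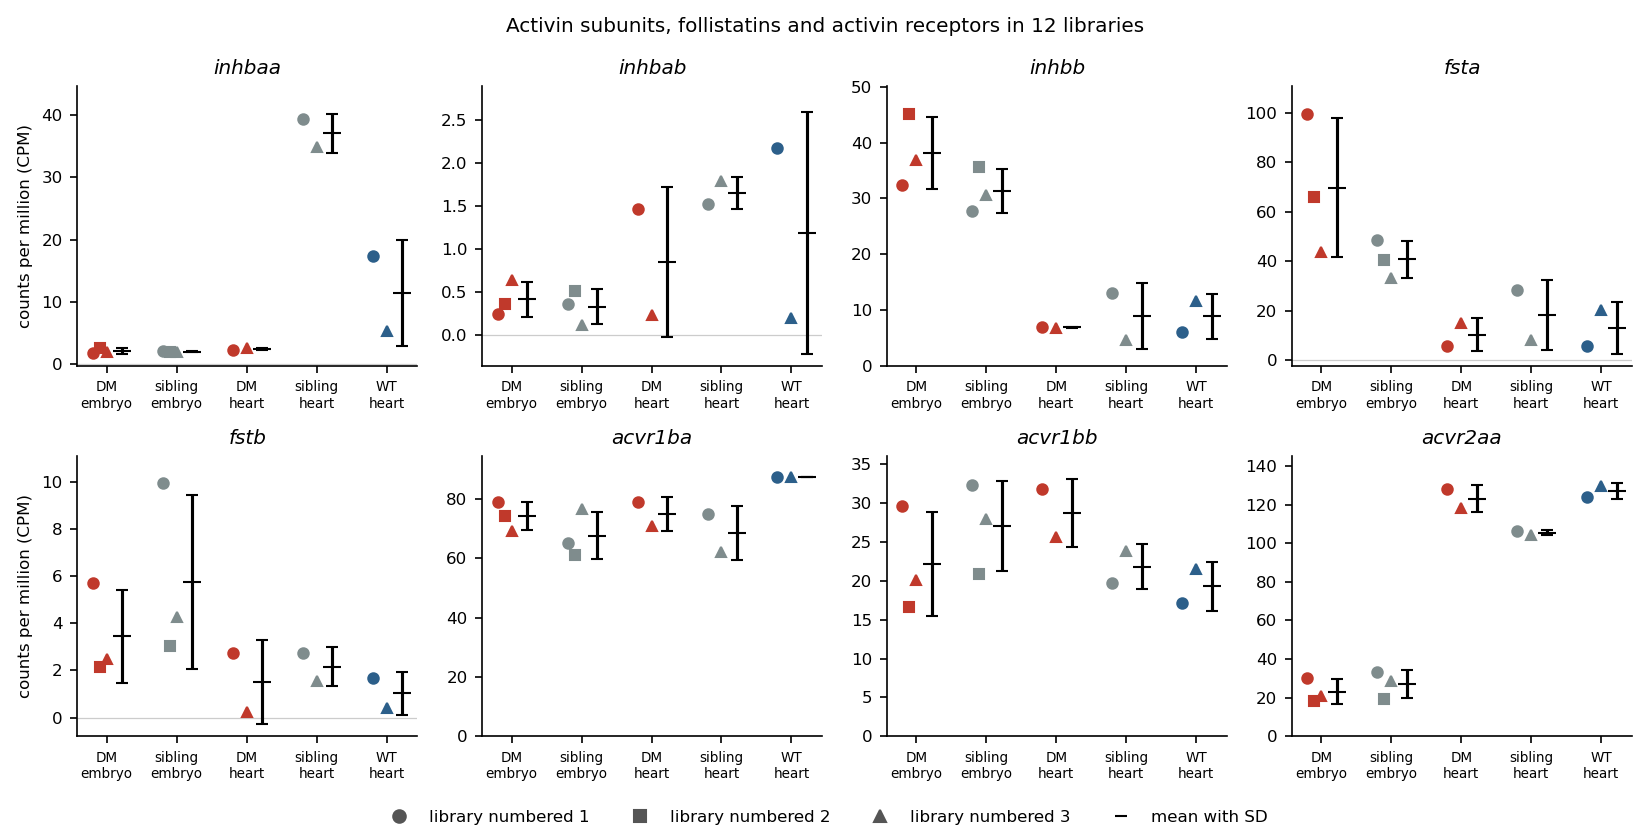
CPM of the 8 genes in each of 12 libraries, in DM and sibling embryos at 25 hpf and DM, sibling and WT hearts at 48 hpf. Symbols are libraries by their number in the labels, and bars beside them are means with SD (n = 3 for embryos, n = 2 for hearts). In the panel for inhbaa the sibling hearts are at 39.2 and 34.8 CPM and the DM hearts at 2.39 and 2.59 CPM. For acvr2aa all 6 hearts lie above all 6 embryo libraries.

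The mean of inhbaa was 2.49 ± 0.141 CPM in DM hearts and 37.0 ± 3.11 CPM in sibling hearts (SD, n = 2 each), so that the sibling mean was 14.9 times the DM mean. The edgeR quasi-likelihood test over all 6 hearts gave a log2 fold change of -3.90 ± 0.67 (SE, DM over sibling) with an unadjusted p of 0.000597 and an adjusted p of 0.781. In this test 0% of 16998 genes passed at an adjusted p of 0.05, inhbaa among those that missed, and 568 genes had an unadjusted p under 0.05. DESeq2 on the same libraries called inhbaa lower (log2 fold change -3.93, adjusted p 0.000146). It called 66 of 13620 genes (0.485%), of which the share called lower was 0.352%, and inhbaa was the only one of 6 members given an adjusted p to pass. With each heart left out in turn, the log2 fold changes were -4.07 to -3.81 in DESeq2 and -4.04 to -3.78 in edgeR. Where a DM or sibling heart was left out, the lone library of that group is assumed to vary like the other groups. Without both hearts numbered 1 of the DM and sibling groups, 1 library of each remained and DESeq2 gave -3.78 with an adjusted p of 1.0. The authors' deposited table gives inhbaa -3.02 on the log2 scale (adjusted p 9.08e-11), in a comparison where it calls 0.802% of genes. That table holds only the DM and sibling hearts, and its log2 values may not be on the same scale as those above.

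Against WT the difference was smaller and depended on which WT heart was used. The WT mean was 11.4 ± 8.49 CPM (SD, n = 2), 4.59 times the DM mean of 2.49 ± 0.141 CPM. The edgeR log2 fold change was -2.51 ± 0.65 (SE, DM over WT, adjusted p 0.654), in a test where 0% of 16998 genes passed and 1254 had an unadjusted p under 0.05. DESeq2 gave -2.57 with an adjusted p of 0.0582 and called 0.825% of 14541 genes, none of them a member. Without WT heart 3 the DESeq2 adjusted p was 0.0113 (log2 fold change -3.20), and without WT heart 1 it was 0.829 (-1.41). The authors' deposited table, which holds only the DM and WT hearts, gives -1.61 with an adjusted p of 0.101. In that comparison it calls 2.05% of genes, and its log2 scale may again differ.

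The sibling and WT control hearts also stood apart for this gene. The edgeR log2 fold change of sibling over WT was 1.39 ± 0.60 (SE) with an unadjusted p of 0.0511 and an adjusted p of 0.913. In this comparison edgeR passed 0% of 16998 genes (833 at an unadjusted p under 0.05) and DESeq2 0.305% of 16383 genes, none of them a member. The value without WT heart 3 was 0.79 and without WT heart 1 was 2.53, and neither passed.

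Whether the DM effect on inhbaa differed between hearts and embryos was tested directly over the 10 DM and sibling libraries. WT hearts were not part of this test, and organ, stage and the amplification of heart RNA cannot be told apart in it. The embryo log2 fold change was 0.11 ± 0.32 (SE, DM over sibling, adjusted p 0.881). The difference of the effects, heart minus embryo, was -4.05 ± 0.52 on the log2 scale (SE), with an edgeR adjusted p of 0.0203. For each gene the test used 1 spread over hearts and embryos together, so the embryo libraries also set the spread for the hearts. Its SE was below the 0.67 of DM over sibling in the edgeR test within hearts, which included the WT hearts. This test called 9 of 19689 genes (0.0457%), all of them lower, and inhbaa was the only member among 8 tested. DESeq2 gave the difference an adjusted p of 2.61e-07 and called 0.497% of 17901 genes. With 1 library left out, the edgeR difference stayed between -4.23 and -3.81, and it passed in 3 of 10 fits, those without DM embryo 1 (0.0419), DM heart 3 (0.0424) and sibling heart 3 (0.0242). It missed without DM embryo 2 or 3, without sibling embryo 1, 2 or 3, and without DM heart 1 or sibling heart 1, with adjusted p-values up to 0.132. Without the DM and sibling hearts numbered 1 it was -3.84 with an adjusted p of 0.0878.

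**Figure D2:**
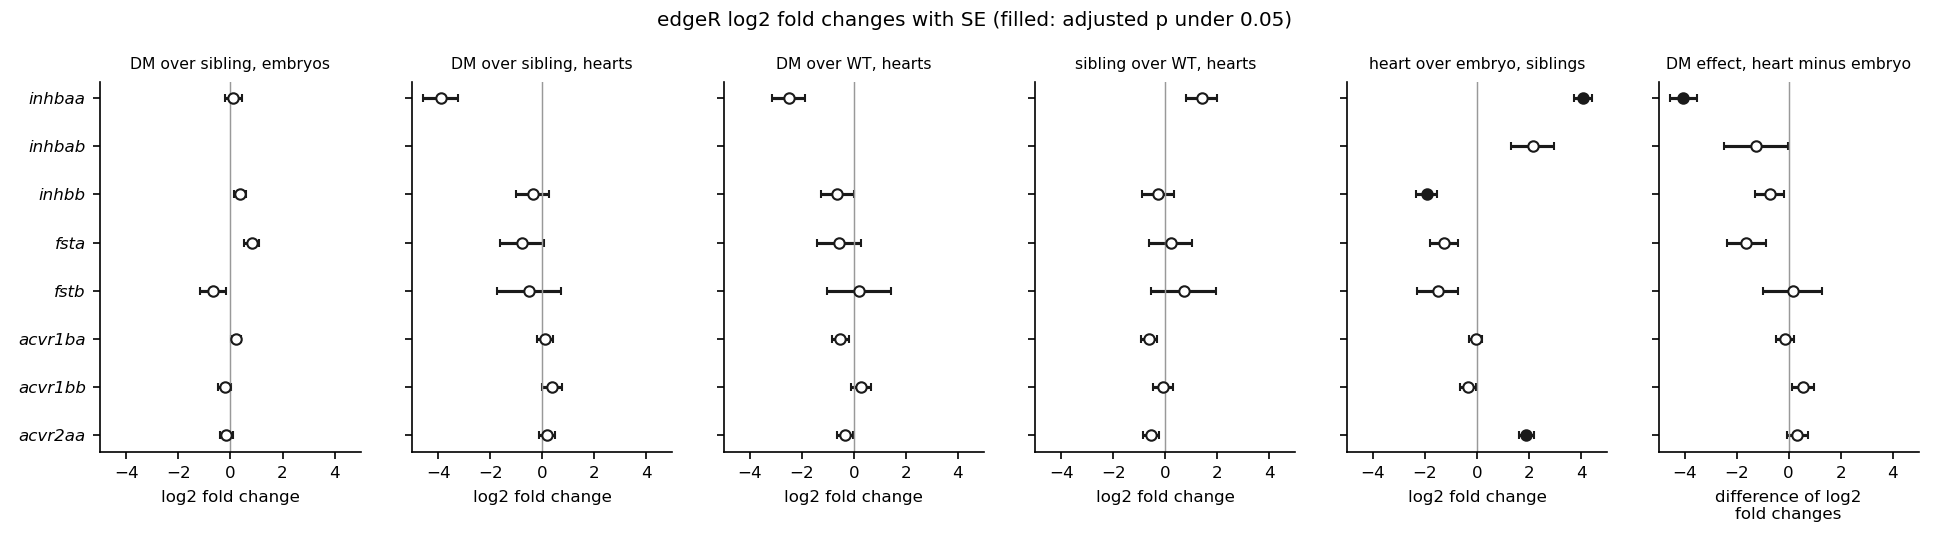
edgeR log2 fold changes with SE of the 8 genes in 6 comparisons, each named above its panel with the group on top of the fold change first. Filled points passed an adjusted p of 0.05, and inhbab has no point where it was below the filter on low counts. The filled point at -4.05 in the last panel is the inhbaa difference of the DM effect between hearts and embryos.

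Among the hearts, the summed markers of foregut mesenchyme and pharynx were lowest in DM libraries, as was inhbaa. In embryos the list summed to 57.9 to 74.6 CPM in DM and 80.3 to 87.0 CPM in sibling libraries, without overlap, whereas inhbaa overlapped there. All 6 listed markers were found, and their summed level was 13.2 to 16.5 CPM in DM hearts, 162 to 361 CPM in sibling hearts and 30.3 to 174 CPM in WT hearts. The forkhead gene foxf1, a marker of gut mesenchyme, was at 2.21 and 0.942 CPM in DM hearts, at 42.3 and 40.8 CPM in sibling hearts and at 19.1 and 5.82 CPM in WT hearts. The homeobox gene barx1 was at 2.39 and 0.471 CPM in DM hearts, at 81.2 and 59.6 CPM in sibling hearts and at 75.3 and 0.388 CPM in WT hearts. The homeobox gene nkx3.3 was at 0.368 CPM and at 0 counts in DM hearts, at 26.8 and 12.5 CPM in sibling hearts and at 10.2 and 3.88 CPM in WT hearts. WT heart 3, the control heart lowest in inhbaa, was also the control heart lowest in foxf1, barx1, nkx3.3 and foxf2a, but not in tbx1 or dlx3b. The forkhead gene foxf2a was at 2.02 and 2.59 CPM in DM hearts, at 126 and 35.3 CPM in sibling hearts and at 42.9 and 3.69 CPM in WT hearts.

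The other markers of the list were less alike. The T-box gene tbx1 was at 6.62 and 5.89 CPM in DM hearts, 52.9 and 9.37 CPM in sibling hearts and 25.3 and 12.2 CPM in WT hearts. For dlx3b the DM hearts, at 2.94 and 3.3 CPM, were inside the range of the WT hearts, at 1.17 and 4.27 CPM, and the sibling hearts were at 31.0 and 4.91 CPM. In the test of the DM effect between hearts and embryos, foxf1 (-4.47), barx1 (-5.07), nkx3.3 (-7.42) and foxf2a (-4.88) passed, with edgeR adjusted p-values of 0.0156 to 0.0372. These are 4 of the 6 markers, beside 0.0457% of all genes. The list was chosen with earlier results of these data known, so this count is a description only. In DM hearts nkx3.3, and in DM heart 3 barx1, lay under the floor of 3 counts (0.552 CPM in DM heart 1, 0.706 CPM in DM heart 3). The sizes of their differences are therefore uncertain. With 1 library left out they ranged from -11.2 to -6.71 for nkx3.3 and from -6.57 to -4.49 for barx1. With 1 library left out, 5 of 10 fits called 0 genes, those without DM embryo 2 or 3 or without sibling embryo 1, 2 or 3. Of the 10 fits, foxf1 passed in 5, barx1 in 4, nkx3.3 in 2 and foxf2a in 1. Epicardial markers (5 genes) summed to 10.7 to 22.4 CPM in DM hearts, 42.6 to 66.3 CPM in sibling hearts and 30.9 to 68.9 CPM in WT hearts, and no marker of that list was at 0. Within it, tcf21 was at 1.1 and 0.942 CPM in DM hearts, 8.82 and 4.46 CPM in sibling hearts and 6.20 and 1.55 CPM in WT hearts. The part of the surrounding tissue carried with each heart, and of the epicardium, in the inhbaa difference was not tested.

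**Figure D3:**
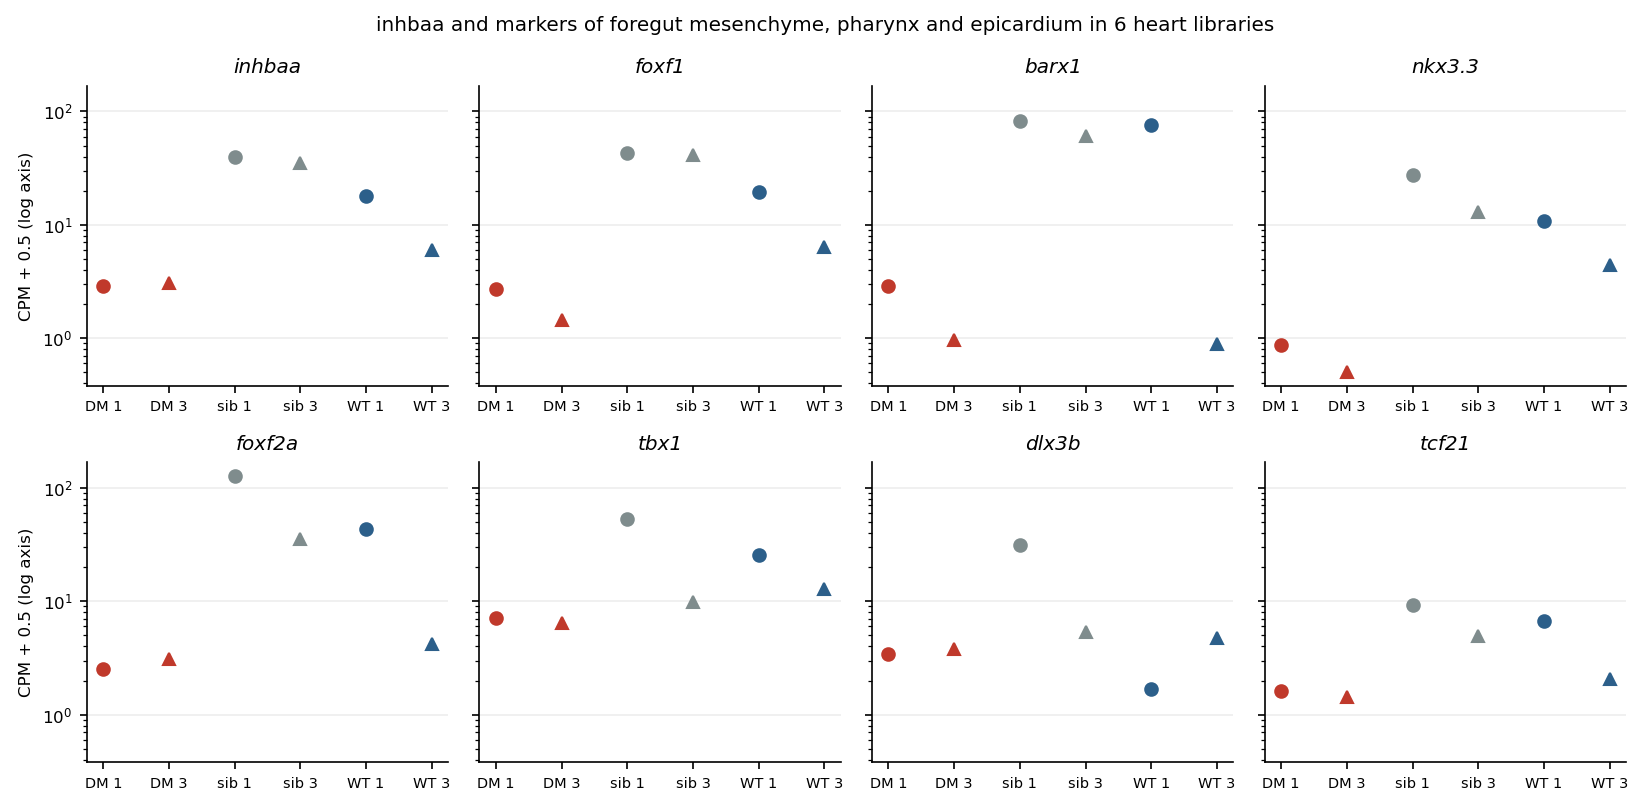
inhbaa beside the 6 markers of foregut mesenchyme and pharynx and the epicardial marker tcf21 in the 6 heart libraries, as CPM + 0.5 on a log axis. Each point is a library, red for DM, grey for sibling and blue for WT hearts. WT heart 3 lies well below WT heart 1 for inhbaa (5.43 and 17.4 CPM), foxf1 (5.82 and 19.1 CPM) and barx1 (0.388 and 75.3 CPM). For dlx3b it lies above WT heart 1.

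The genes whose log2(CPM + 1) followed inhbaa most closely over the 6 hearts were the chemokine gene cxcl12b (Pearson r = 0.995), the co-chaperone gene stip1 (r = 0.995) and foxf1 (r = 0.987), of 11391 genes compared. Over the 6 embryo libraries they were the myogenic factor myf5 (r = 0.939), morn3 (r = 0.913) and grhl2b (r = 0.877). These are the highest of all correlations computed, each over only 6 libraries that also differ in depth and, for hearts, may differ in dissection. They are given as a description. For the other members the closest gene in hearts was cirh1a for inhbab, carf for inhbb, ep400 for fsta and topbp1 for fstb. For the receptors it was adssl1 for acvr1ba, rfng for acvr1bb and pank2 for acvr2aa. The r of these genes was 0.973 to 0.995. In hearts inhbab and fstb had only 1 to 15 counts a library, so their correlations may follow counting error.

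The duplicate inhbab had few counts everywhere. It was at 1.47 and 0.235 CPM in DM hearts, 1.52 and 1.79 CPM in sibling hearts and 2.18 and 0.194 CPM in WT hearts, from 1 to 13 counts a library. In embryos it was at 0.241, 0.360 and 0.643 CPM in DM libraries and 0.359, 0.518 and 0.113 CPM in sibling libraries. The count was 3 or fewer in 5 of 12 libraries, and a DM difference was not detectable at this depth. It was below the filter on low counts in the fits within embryos and within hearts.

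The inhibin beta B gene inhbb showed the opposite distribution to inhbaa, with more reads in embryos than in hearts. It was at 32.4, 45.2 and 36.9 CPM in DM embryos and at 27.8, 35.6 and 30.6 CPM in sibling embryos. In hearts it was at 6.99 and 6.83 CPM in DM, at 13.1 and 4.69 CPM in sibling and at 6.04 and 11.6 CPM in WT libraries, so the DM hearts lay inside the range of both control groups. Equally numbered embryo libraries had DM over sibling ratios of 1.17, 1.27 and 1.20. The edgeR log2 fold change in embryos was 0.36 ± 0.24 (SE, adjusted p 0.722). With the replicate number as a block it was 0.35 with an adjusted p of 0.104. Without pair 3 the blocked value passed (0.30, adjusted p 0.0283), in a fit that called 3119 of 18279 genes. This was the only 1 of 15 alternative fits in embryos in which inhbb passed. It rested on the remaining pairs alone, which leave few libraries to estimate a spread from.

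The follistatin gene fsta was at 99.6, 65.9 and 43.7 CPM in DM embryos and at 48.4, 40.7 and 33.4 CPM in sibling embryos. The lowest DM library was inside the sibling range, but in each of the 3 equally numbered pairs the DM library was higher, by ratios of 2.06, 1.62 and 1.31. The edgeR test without pairing gave a log2 fold change of 0.82 ± 0.30 (SE) with an unadjusted p of 0.0228 and an adjusted p of 0.722. Here 0% of 17831 genes passed, 585 had an unadjusted p under 0.05, and DESeq2 called 0.206% of 18933 genes, none of them a member. With the replicate number as a block, fsta was higher in DM embryos (log2 fold change 0.79, edgeR adjusted p 0.00242), in a fit that called 13.8% of genes. That pairing was read from these same libraries, and the labels do not state it. Without pair 1 the blocked value was 0.65 with an adjusted p of 0.188, and without pair 2 it was 0.81 with 0.0226. Without pair 3 fsta passed as well (edgeR adjusted p 2.19e-18), in a fit that called 3119 of 18279 genes. Fits without a pair leave few libraries to estimate a spread from, so this p-value is not read as strength of evidence. In embryos fsta passed in 4 of 15 alternative fits, all with the block.

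The duplicate fstb had the opposite sign. It was at 5.71, 2.16 and 2.47 CPM in DM embryos and at 9.94, 3.03 and 4.28 CPM in sibling embryos, which overlapped. In each pair the DM library was lower, by ratios of 0.574, 0.711 and 0.576. Without pairing the edgeR log2 fold change was -0.67 ± 0.49 (SE, adjusted p 0.722). With the replicate number as a block, fstb was lower in DM embryos (-0.67, adjusted p 0.0444). Without pair 1 the blocked adjusted p was 0.426 and without pair 2 it was 0.0835. Without pair 3 it was 0.0176, in the fit on the remaining pairs alone that called 3119 of 18279 genes. In embryos fstb passed in 3 of 15 alternative fits, all with the block. The blocked fit with all pairs called 13.8% of all genes, 4.37% higher and 9.39% lower, beside 1 member higher and 1 lower of 7 tested. In the fit with the block and with each library's trend over gene span removed, fsta (0.60, adjusted p 0.0120) and fstb (-0.81, adjusted p 0.0179) also passed.

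**Figure D4:**
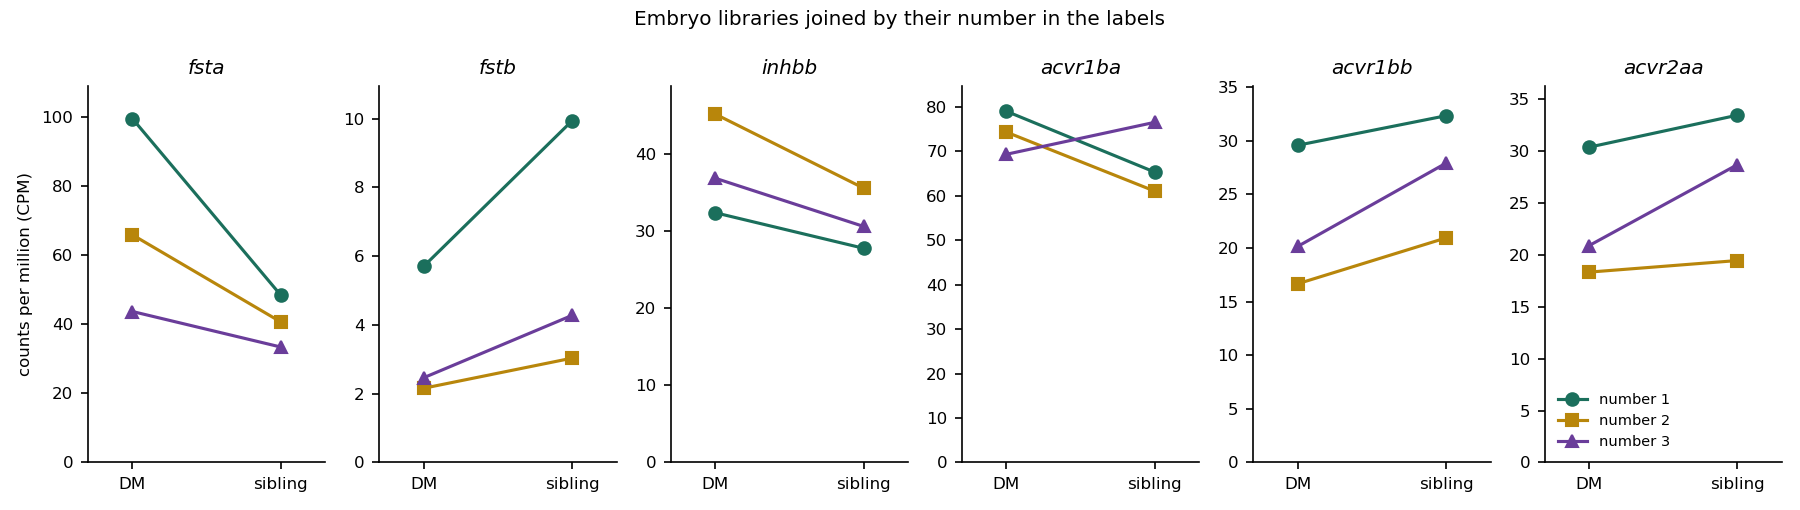
CPM of 6 genes in 25 hpf embryos, with DM libraries left and sibling libraries right, and lines joining libraries of equal number in the labels. All 3 lines descend to the sibling side for fsta and inhbb and climb to it for fstb, acvr1bb and acvr2aa. For acvr1ba the pair numbered 3 runs against the other 2.

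In hearts neither follistatin separated the genotypes. fsta was at 5.70 and 15.1 CPM in DM hearts, at 28.3 and 8.26 CPM in sibling hearts and at 5.70 and 20.4 CPM in WT hearts, and all 3 groups overlapped. The edgeR log2 fold change was -0.79 ± 0.84 (SE) against sibling and -0.58 ± 0.84 (SE) against WT, with adjusted p-values of 1.0 and 0.886. Without the DM and sibling hearts numbered 1, the first of these was 0.86, of the other sign. fstb was at 2.76 and 0.235 CPM in DM hearts, at 2.74 and 1.56 CPM in sibling hearts and at 1.68 and 0.388 CPM in WT hearts, from 1 to 15 counts a library. The difference of the DM effect on fsta between hearts and embryos was -1.62 ± 0.76 on the log2 scale (SE) and did not pass (edgeR adjusted p 0.848).

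Among the receptors, acvr1ba stayed between 61.0 and 87.5 CPM over all 12 libraries. It was at 79.0, 74.3 and 69.3 CPM in DM embryos and 65.3, 61.0 and 76.5 CPM in sibling embryos. The blocked log2 fold change in embryos passed without pair 3 (0.30, adjusted p 0.0118) and not with all pairs (adjusted p 0.330). The fit without pair 3 called 3119 of 18279 genes, and acvr1ba passed in only this 1 of 15 alternative fits. It rested on the remaining pairs alone, which leave few libraries to estimate a spread from. In hearts acvr1ba was at 78.9 and 70.9 CPM in DM, 75.1 and 62.1 CPM in sibling and 87.5 and 87.3 CPM in WT libraries. Both WT hearts were above the 4 other hearts, and the edgeR log2 fold changes against WT were -0.52 ± 0.32 (SE) for DM and -0.63 ± 0.32 (SE) for sibling hearts. Neither passed, with adjusted p-values of 0.730 and 0.913. Blood markers (7 genes) also set WT hearts apart, at 0.106% to 0.111% of counts in DM, 0.0660% to 0.0717% in sibling and 0.178% to 0.190% in WT hearts. Skin markers (5 genes) took 0.157% to 0.284% in DM, 0.152% to 0.203% in sibling and 0.0641% to 0.0714% in WT hearts. Endoderm and liver markers (8 genes) took 0.0337% to 0.0455% in DM, 0.0392% to 0.0642% in sibling and 0.0136% to 0.0171% in WT hearts. Their part in the receptor values was not tested.

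The second type I receptor gene, acvr1bb, was at 29.6, 16.7 and 20.1 CPM in DM embryos and 32.3, 20.9 and 27.9 CPM in sibling embryos. It was at 31.8 and 25.7 CPM in DM hearts, above the 19.8 and 23.9 CPM of sibling hearts and the 17.1 and 21.5 CPM of WT hearts. The heart groups did not overlap for DM, but the log2 fold changes of 0.37 ± 0.38 against sibling and 0.28 ± 0.38 against WT (SE) did not pass in edgeR (adjusted p 1.0 and 0.879). In embryos it was lower in the DM library of each of the 3 pairs, by ratios of 0.915, 0.796 and 0.722, and did not pass with or without the block.

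The type II receptor gene acvr2aa was at 128 and 118 CPM in DM hearts, 106 and 104 CPM in sibling hearts and 124 and 130 CPM in WT hearts. DM and WT hearts overlapped in CPM, and sibling hearts lay below both. Scaled by TMM factors, as in the test, DM hearts were at 114 and 115 CPM and WT hearts at 147 and 144 CPM, without overlap. In embryos it was at 30.4, 18.3 and 20.9 CPM in DM libraries and 33.5, 19.5 and 28.7 CPM in sibling libraries. The edgeR log2 fold change in hearts was 0.20 ± 0.31 (SE) for DM over sibling and -0.34 ± 0.31 (SE) for DM over WT, and neither passed (adjusted p 1.0 and 0.812).

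The order of the group means differed between genes. For inhbaa it was sibling hearts, WT hearts, DM hearts, DM embryos and sibling embryos from the highest to the lowest, and of neighbouring groups DM hearts overlapped DM embryos, and DM embryos overlapped sibling embryos. For acvr2aa it was WT, DM and sibling hearts, then sibling and DM embryos, with a gap of 78.2 CPM between hearts and embryos. For inhbb and fsta both embryo groups came first, DM before sibling, with no overlap with any heart group and overlap among the hearts. For acvr1bb neighbouring groups overlapped along the whole order, and for acvr1ba WT hearts alone stood clear.

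Sibling hearts and sibling embryos were set against each other to describe where the genes were counted. Organ, stage and the amplification of heart RNA cannot be told apart in this comparison, in which edgeR called 47.6% of 19689 genes, 23.5% higher and 24.1% lower in hearts. Of the 8 members, 2 were higher in hearts, inhbaa (log2 fold change 4.07 ± 0.34, SE, adjusted p 1.4e-05) and acvr2aa (1.89 ± 0.28, adjusted p 0.000334). One member was lower in hearts, inhbb (-1.94 ± 0.41, adjusted p 0.00277). These 3 calls held in all 16 alternative fits. inhbab, with few counts, missed (2.14 ± 0.84, SE, adjusted p 0.0539) and passed in 4 of 16 alternative fits. fsta missed (-1.28, adjusted p 0.0744), passed in 5 of 16 alternative fits, and was -2.35 without sibling heart 1. fstb missed as well (-1.51, adjusted p 0.129), and passed with the replicate number as a block (-1.41, adjusted p 0.0286), a fit that called 58.7% of genes. The type I receptor genes acvr1ba (-0.05 ± 0.24, SE) and acvr1bb (-0.37 ± 0.31, SE) did not pass, and the sign of acvr1ba turned with RLE size factors (0.049).

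The other genes of the pathway were taken from 5 lists. In the edgeR tests of DM against sibling or WT, 0 genes of any list passed, as for all genes. In embryos with the replicate block, the list of Smads and nuclear partners had 4 of 17 genes lower and 0 higher, beside the 9.39% and 4.37% of all genes, and the list's median log2 fold change was -0.33 beside 0.02 for all genes. They were smad3b (-0.87, adjusted p 0.00578), which transmits activin signals, the Smad2 co-repressor tgif1 (-0.61), and smad5 (-0.58) and smad1 (-0.45), which transmit BMP signals. smad3b was at 5.39, 4.44 and 5.14 CPM in DM embryos and 11.3, 6.21 and 11.6 CPM in sibling embryos, which did not overlap. The pairing by number was read from these same libraries, and the list was chosen with earlier results of these data known. The count of 4 of 17 is therefore a description only. The block called 536, 1227 and 3119 genes without pair 1, 2 and 3, and the Smad values of those fits are not given here. By library number, the list summed to 462, 282 and 264 CPM in DM embryos and 540, 341 and 487 CPM in sibling embryos. Levels also followed gene span, with r of 0.310, -0.363 and -0.331 in DM and 0.387, -0.308 and 0.242 in sibling libraries. The libraries numbered 3 thus had opposite trends. The fits with this trend removed covered all genes, but their values for the Smads are not given here.

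The counts of the other 4 lists in this blocked fit stand beside 9.39% of all genes lower and 4.37% higher, and nothing particular to the lists is read from them. Of 15 other receptors tested, bmpr2b (-0.62) and tgfbr1b (-0.60) were lower, and of 9 other ligands gdf10a was lower (-0.65). Of 16 binding proteins, the BMP antagonist nog3 was higher (1.40, adjusted p 0.00127) and nog2 lower (-0.67, adjusted p 0.0394). nog3 was at 3.78, 5.87 and 4.07 CPM in DM embryos and 1.32, 2.00 and 2.25 CPM in sibling embryos. Of 18 matrix and Smad2/3-responsive genes, 3 were lower, the versican genes vcana (-0.77) and vcanb (-0.54), and tgfbi (-0.48).

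In hearts the list of matrix and Smad2/3-responsive genes held the DESeq2 calls among these 5 lists. The hyaluronan synthase gene has2 was at 46.3 and 56.3 CPM in DM hearts, at 122 and 342 CPM in sibling hearts and at 300.2 and 221 CPM in WT hearts, with DM below both. DESeq2 called it lower against sibling (log2 fold change -2.22, adjusted p 0.0371) and against WT (-2.68, adjusted p 0.00247), where 0.475% of genes were called lower. The collagen gene col1a1a was called lower against sibling (-2.94, adjusted p 0.0139), with 74.3 and 63.8 CPM in DM hearts, 900 and 152 CPM in sibling hearts and 189 and 297 CPM in WT hearts. Without sibling heart 1, the highest in col1a1a, DESeq2 gave that gene -1.23 (adjusted p 0.898), and its call was also lost without DM heart 1 (0.133) or DM heart 3 (0.125). The has2 call against sibling was lost without DM heart 1 (0.679), DM heart 3 (0.166) or sibling heart 3, where it was -1.24 (0.647). Against WT it was lost without DM heart 1 (0.197) or WT heart 1 (0.104). These were 2 of 19 genes of the list against sibling, where 0.352% of all genes were called lower, and 1 of 19 against WT. In hearts 0 genes of the other 4 lists were called. The list was chosen with earlier results of these data known, so these counts are a description only. In WT heart 3, the control heart lowest in inhbaa, has2 was at 221 CPM, inside the wide range of the 2 sibling hearts (122 to 342 CPM). A relation between has2 and inhbaa was not tested.

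**Figure D5:**
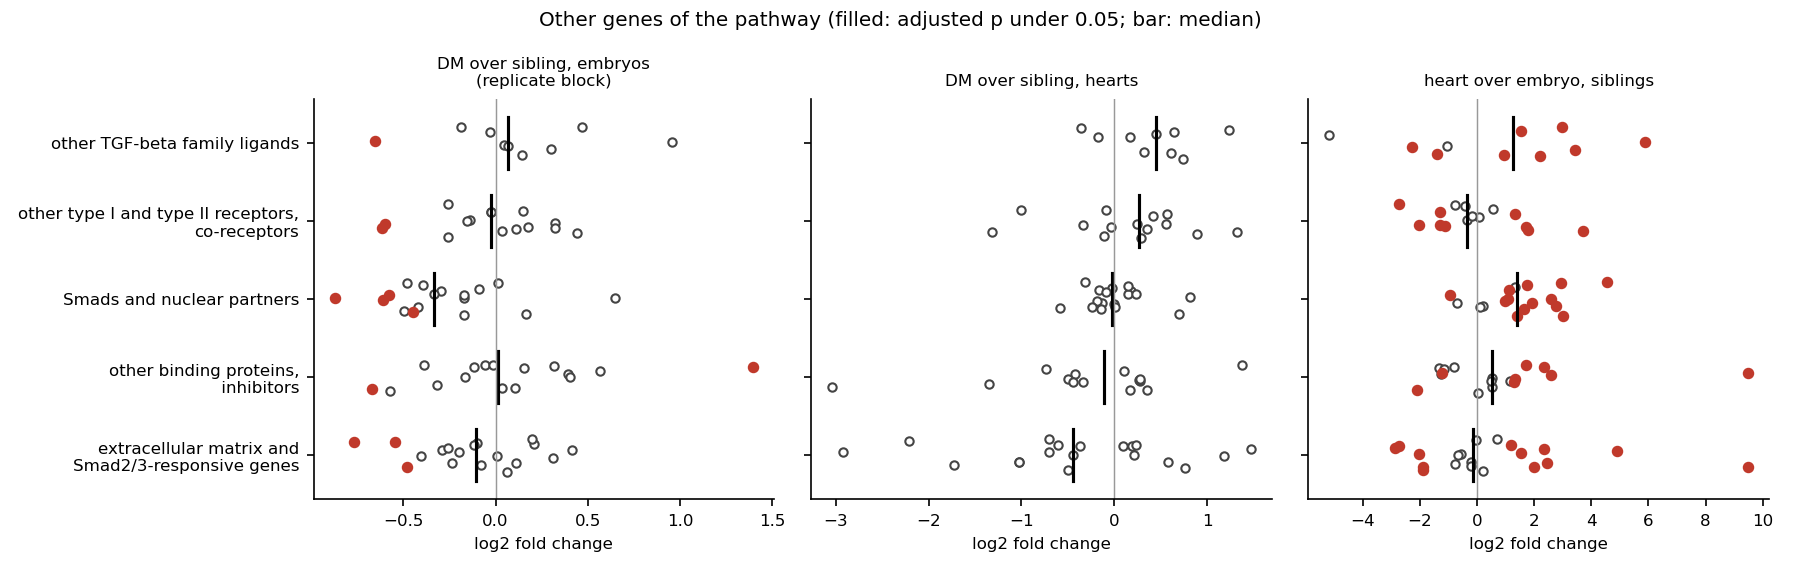
Log2 fold changes of the genes in 5 lists, for DM over sibling embryos with the replicate block, for DM over sibling hearts and for sibling hearts over sibling embryos (edgeR). Each point is a gene, filled where its adjusted p was under 0.05, and the bar is the list's median. The Smad list has its median at -0.33 in the first panel and at 1.41 in the last.

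Between sibling hearts and sibling embryos, 12 of 17 Smads and nuclear partners were higher in hearts and 1 lower, and the list's median log2 fold change was 1.41 beside -0.06 for all genes. Among them were the inhibitory Smads smad7 (3.02) and smad6a (2.77), and smad4a was the one lower (-0.93). The shares of all genes called, 23.5% higher and 24.1% lower, stand beside each of these counts. Of 10 other ligands, 6 were higher and 2 lower, with tgfb2 (2.98) and gdf11 (2.21) among the higher. Of 15 other receptors and co-receptors, 4 were higher, among them tgfbr3 (3.70), and 5 lower, among them acvr2ab (-1.10) and tgfbr1b (-2.04). Of 17 binding proteins and inhibitors, 6 were higher and 2 lower, and the follistatin-related genes were split, with fstl1b higher (1.32) and fstl1a lower (-1.24). The matrix list had 7 of 20 genes higher, has2 (4.91) among them, and 5 lower, among them col1a1b (-2.74).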

How the data were processed

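RNA-seq was made from 6 whole-embryo and 6 heart libraries. Per the labels' protocols, heart RNA was amplified with the Ovation RNA-Seq System V2 and embryo RNA was not, and TruSeq RNA v2, which does not mark strand, was used for both. The submitters' processing notes name STAR 2.3.0e, HTSeq 0.6.0 and GRCz10, with no role given. The authors deposited raw counts per gene in 4 tables, with log2 fold changes and adjusted p-values of their own comparisons; the signs of the log2 fold changes in the deposited tables against WT were turned here so that WT is below. Normalised columns (18) were not used. How reads shared by duplicate or overlapping genes were counted is not given in the sources used here.

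CPM was computed from raw counts over the library total. Tests used edgeR 4.0.16 (TMM factors, filterByExpr, quasi-likelihood, Benjamini-Hochberg at 0.05) in R 4.3.3 over all genes. Each fit used 1 spread per gene over all its groups, so hearts and embryos shared it in the fits over 10 libraries. The code of the fits was run on simulated counts with an equal spread for all genes and no pairing or span trend. Such counts cannot show how the fits perform on these libraries. DESeq2 1.42.0, RLE factors, no filter, a replicate block, removal of a trend with gene span, and left-out libraries were the alternatives; the DESeq2 and blocked fits with libraries left out, and the fits over 10 libraries without the DM and sibling hearts numbered 1, were chosen after seeing the data. Libraries numbered alike in the embryos deviated together (r = 0.840, 0.661 and 0.285 over 17831 genes), so the number was taken as pairing them, although DM embryo 3 and sibling embryo 2 also did (r = 0.495). Nothing in the labels says that replicates are separate clutches, and p-values then reflect only the spread of these samples, which may be technical. Intervals are exact (Clopper-Pearson) and cover counting error only. The 8 genes and all lists were chosen with earlier results of these data known. All 8 genes were named; from each list the genes past the threshold in a comparison were eligible, at most 5 a direction by log2 fold change. Likeness used log2(CPM + 1) of genes with a mean of at least 5 CPM.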

Additional observations from a re-analysis of the deposited data

Results flagged for a closer look

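In a test of the difference itself (edgeR, heart minus embryo, 10 libraries), the DM effect differed for inhbaa (-4.05 on the log2 scale). It also differed for 4 markers of foregut mesenchyme and pharynx, from a list chosen with earlier results of these data known. These were foxf1 (-4.47), barx1 (-5.07), nkx3.3 (-7.42) and foxf2a (-4.88). In DM hearts nkx3.3, and in DM heart 3 barx1, lay under the floor of 3 counts, so the sizes for these genes are uncertain. The test called 9 genes in all (0.0457%). Sibling hearts were its only heart control, with a mean of 37.0 CPM for inhbaa against 11.4 CPM in WT hearts. Organ, stage and the amplification of heart RNA cannot be told apart in it. For each gene it used 1 spread over hearts and embryos together. Within hearts alone, DM over sibling did not pass for inhbaa (edgeR adjusted p 0.781). With 1 library left out, inhbaa passed in 3 of 10 fits, foxf1 in 5, barx1 in 4, nkx3.3 in 2 and foxf2a in 1, and 5 of 10 fits called 0 genes. The part of the markers' tissue in the inhbaa difference was not tested.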

How the results depend on the processing

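Few counts in hearts (inhbab, fstb) and 2 libraries a heart group limit what could be detected, and the WT hearts differed from each other. The calls of inhbaa, acvr2aa and inhbb between sibling hearts and sibling embryos held in all 16 alternatives. Counts of called genes moved most. In embryos edgeR called 0 genes (0 to 2 with a library left out), DESeq2 39, the replicate block 2453, the block with the span trend removed 2321, and the block without pair 1, 2 or 3 called 536, 1227 and 3119. In hearts, where edgeR called 0, DESeq2 called 66 genes for DM over sibling, 120 for DM over WT and 50 for sibling over WT. Without the DM and sibling hearts numbered 1 it called 6, 36 and 14, and edgeR with no filter called 3 for DM over sibling and 3 for DM over WT. With a heart left out, edgeR and DESeq2 fits called 0 to 127, 0 to 262 and 0 to 86 genes in these comparisons. The difference of the DM effect gave 9 genes, against 89 with DESeq2, 17 with RLE factors, 14 with no filter and 48 with the replicate block, and 0 to 41 with a library left out. Heart numbers were not taken as pairing libraries, with 2 a group and correlations of 0.308, -0.0232 and -0.237, and the replicate block called 0 genes in each comparison of hearts. The replicate block, as an alternative, still used the heart numbers, also in the fits over 10 libraries.

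Signs turned for values that passed in none of the fits concerned, and the cause was not tested. In embryos acvr2aa was 0.045 with the span trend removed and 0.044 with the block as well, and -0.33 to 0.00464 with a library left out. In embryos inhbaa was -0.075 in the block without pair 2 and -0.10 to 0.29 with a library left out. Without the DM and sibling hearts numbered 1, edgeR and DESeq2 gave 0.54 and 0.51 for inhbb, 0.86 and 0.83 for fsta and -0.22 and -0.26 for gdf3 in DM over sibling hearts. In sibling over WT hearts they gave 0.078 and 0.068 for acvr1bb and -0.87 and -0.88 for fsta. The same libraries left out gave 0.19 for inhbb, 0.051 for fsta and -1.99 for fstb in the difference of the DM effect, where the replicate block gave -0.11 for fstb. Between sibling hearts and embryos acvr1ba was 0.042 with DESeq2 and 0.049 with RLE factors, and -0.15 to 0.027 with a library left out.

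With 1 heart left out, by either tool, DM over sibling ranged from -0.000158 to 0.20 for acvr1ba, -0.91 to 0.49 for inhbb, -1.77 to 0.28 for fsta and -2.98 to 0.27 for fstb. DM over WT ranged from -1.59 to 0.56 for fsta and -2.27 to 1.61 for fstb. Sibling over WT ranged from -1.15 to 0.25 for inhbb, -0.31 to 0.070 for acvr1bb, -0.89 to 1.35 for fsta and -0.49 to 3.54 for gdf9. The difference of the DM effect ranged from -1.29 to 0.093 for inhbb and -2.36 to 0.89 for fstb. Scaling CPM by TMM factors moved 6 of 40 group means by more than 1 SD.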
